A study of Mus musculus with 31 samples.

Results

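The metabotropic glutamate receptors followed here are Grm2, Grm3, Grm4, Grm5, Grm7 and Grm8, measured in the hippocampus of Glud1 transgenic (Tg) and wild type (wt) mice at 5 ages. The members were chosen by gene symbol in the array annotation. The 6 genes are represented by 9 of the 45037 mouse probe sets on the array, and 8 of these 9 were tested, having risen above the array median in at least 3 mice. The probe set that was not tested, 1459532_at of Grm7, was below the array median on all 31 arrays.

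Tg mice carried a transgene for Glud1, glutamate dehydrogenase 1, that is over-expressed in neurons, and wt mice of the same C57BL/6 background lacked it. The mice were males of 10 days, 4.5, 9, 14.5 and 20 months, with 1 hippocampal RNA sample and 1 array for each mouse. Every age had 3 Tg and 3 wt mice, except that 4 wt mice were deposited at 10 days, where the study's methods describe 3. The Glud1 probe sets recognise a part of the transcript that the transgene did not contain, so their signal could not be used to check the genotype labels. All 5 dentate granule cell markers and all 6 CA pyramidal cell markers were above the array median on all 31 arrays. So were all 5 measured neocortex markers and some thalamus markers. A signal above the median therefore does not tell hippocampus from neighbouring tissue.

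Metabotropic glutamate receptors are G protein-coupled receptors that adjust excitability and transmitter release more slowly than the ion channel receptors for glutamate. Grm5 belongs to group I, which acts through Gq, phospholipase C and calcium release, and sits mostly around the postsynaptic density, where Homer proteins hold it. Grm2 and Grm3 form group II and Grm4, Grm7 and Grm8 belong to group III. Both of these groups act through Gi and Go to lower cyclic AMP and calcium entry, and many of them are found on presynaptic terminals, where they reduce transmitter release, while Grm3 is also present on astrocytes.

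Values are log2 of the deposited signals after quantile normalization over the 31 arrays, on a scale where the median of each array is 6.84. Fold changes are log2 differences with their standard error (SE), from a linear model in limma with p-values adjusted by Benjamini and Hochberg over all 26877 probe sets tested. A gene is represented by its brightest tested probe set, and shares of all genes refer to the 12844 genes so represented. A change between ages was called at an adjusted p under 0.05. The model's p-values measure the spread between individual mice. In whole hippocampal RNA, fewer cells of a type and less RNA per cell cannot be told apart. The levels of different probe sets are not comparable with one another, because each binds with its own strength.

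The arrays of the 9-month mice stood apart in one measure of RNA integrity. The log2 ratio of the 3′ to the 5′ control probe set of beta-actin was between 0.709 and 0.963 at 9 months, against 0.353 to 0.462 at 4.5 months (exact two-sided permutation test, p = 0.00216, the smallest that 6 against 6 mice can give). Summed signals of the choroid plexus markers, over the 6 of 7 that were measured, also varied between mice, ranging from 740 to 48800 over the 31 arrays. The part of either measure in the receptor results was not tested, and the ratio is given again where receptors differed at 9 months.

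Grm5, Grm2, Grm3, Grm4 and the brightest Grm7 probe set were above the array median on all 31 arrays. Grm8 was above it on 27 of 31, and its 4 lower values came from 3 mice of 9 months and 1 of 20 months. The second Grm7 probe set, 1458861_at, was above it on 15 of 31. The deposited table holds no detection calls, so whether these low values lay above background could not be determined.

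**Figure D1:**
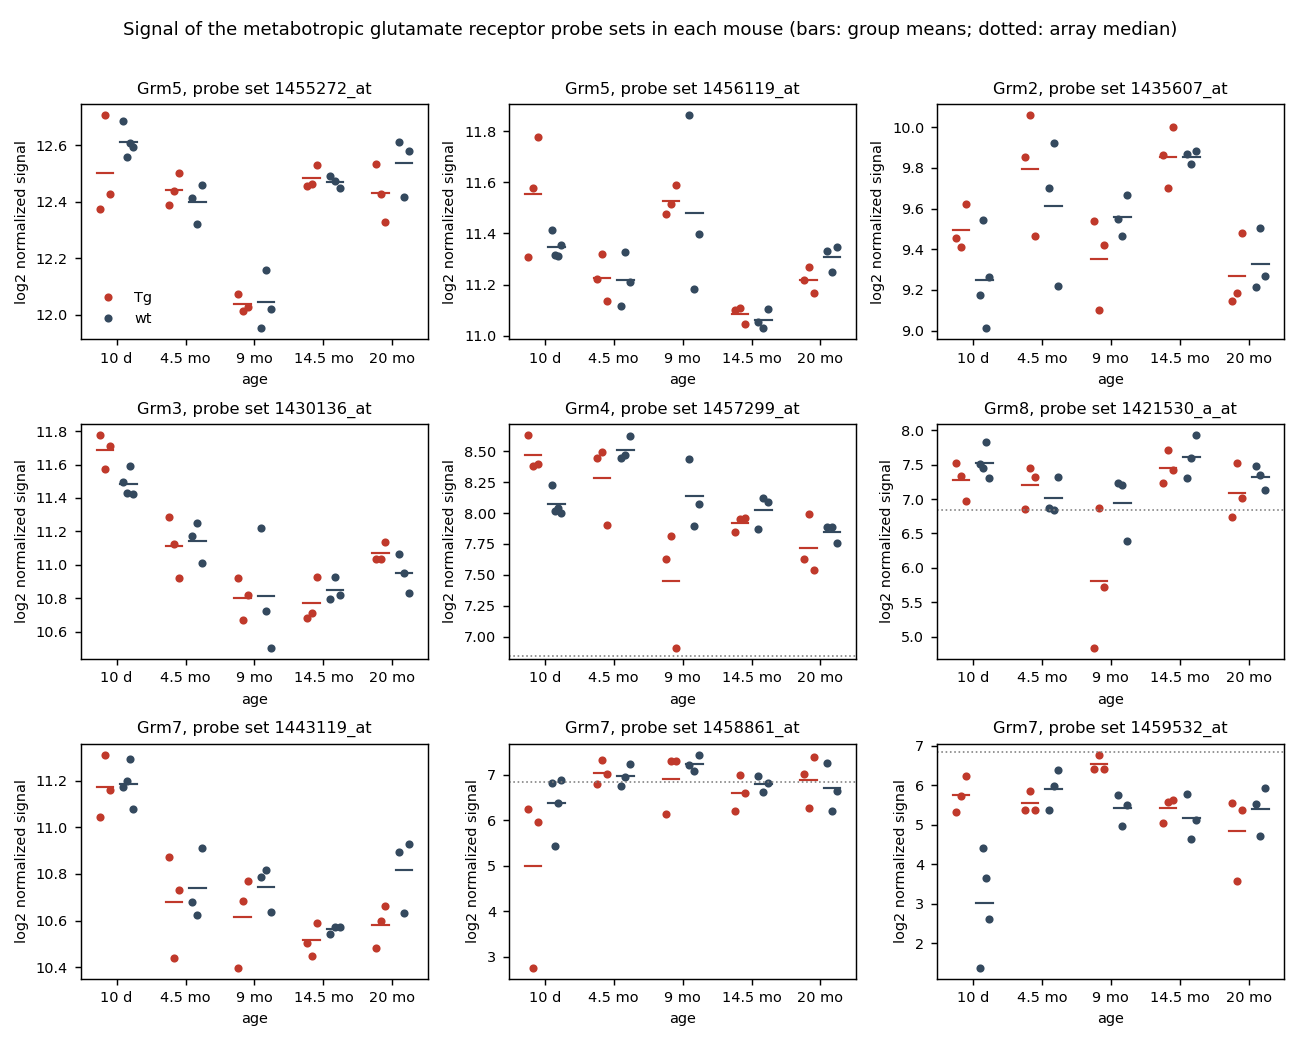
Each panel plots the log2 normalized signal of 1 probe set (y axis) against age (x axis), with 1 point for each mouse, Tg mice left of wt mice, bars at the group means and a dotted line at the array median of 6.84 where it lies within the panel. Grm3 and Grm7 (1443119_at) lie highest at 10 days, Grm5 (1455272_at) lies lowest at 9 months, and the Grm4 and Grm8 points of the Tg mice at 9 months reach down to 6.91 and 4.83.

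Between 10 days and 4.5 months, when the hippocampal circuit matures, 4 of the 6 receptors changed, where 66.7% of all genes did. By their brightest probe sets Grm3, Grm5 and Grm7 fell, against 35.5% of all genes, and Grm2 rose, against 31.2% of all genes.

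Grm3, a group II receptor of neurons and astrocytes, had a log2 signal of 10.92 to 11.29 at 4.5 months (median 11.15, n = 6), against 11.43 to 11.78 at 10 days (median 11.57, n = 7). The ages did not overlap. The difference was −0.46 ± 0.08 (SE, adjusted p = 1.6e-05), and it was −0.58 ± 0.12 in Tg mice (adjusted p = 1.89e-04) and −0.34 ± 0.11 in wt mice (adjusted p = 0.0112).

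Grm7, the group III receptor of the presynaptic active zone, had a signal of 10.44 to 10.91 at 4.5 months (median 10.70) and of 11.04 to 11.31 at 10 days (median 11.17) by its bright probe set 1443119_at. Again the ages did not overlap. The difference was −0.47 ± 0.07 over both genotypes (adjusted p = 1.61e-06), −0.49 ± 0.11 in Tg mice (adjusted p = 2.74e-04) and −0.45 ± 0.10 in wt mice (adjusted p = 3.23e-04), and the difference between the genotypes was −0.04 ± 0.14 (adjusted p = 0.978). The dim probe set 1458861_at went the other way, by 1.33 ± 0.38 (adjusted p = 0.00337). Its deposited signal was 6.26 in 1 Tg mouse of 10 days, against 34.9 to 101 in the other 6 mice of that age. The rise stayed called in all 13 fits that left out 1 mouse, at 0.77 to 1.65.

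Grm2, the second group II receptor and largely neuronal, rose by 0.33 ± 0.11 (adjusted p = 0.00897). Its signal was 9.22 to 10.06 at 4.5 months (median 9.78) and 9.01 to 9.62 at 10 days (median 9.41), and the ages overlapped. Among Tg mice the values were 9.85, 10.06 and 9.47 at 4.5 months, against 9.46, 9.41 and 9.62 at 10 days.

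The 250 bases before the annotated start of Grm2, Grm3 and Grm7 are given here for comparison, 5′ to 3′ on the strand of the gene. By their brightest probe sets Grm2 rose and Grm3 and Grm7 fell. They are RefSeq sequences of the build GRCm38.p6, with each GC box (GGGCGG, searched on both strands) in capitals. Grm2 lies at chr9:106656110-106656359 on the minus strand, Grm3 at chr5:9725353-9725602 on the minus strand, and the most upstream of the 2 Grm7 windows at chr6:110645262-110645511 on the plus strand.
Grm2: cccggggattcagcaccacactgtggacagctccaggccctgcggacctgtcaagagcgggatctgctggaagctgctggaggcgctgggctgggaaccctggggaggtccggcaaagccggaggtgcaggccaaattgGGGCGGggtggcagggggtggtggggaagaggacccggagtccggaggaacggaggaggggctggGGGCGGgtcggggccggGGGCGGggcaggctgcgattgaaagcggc
Grm3: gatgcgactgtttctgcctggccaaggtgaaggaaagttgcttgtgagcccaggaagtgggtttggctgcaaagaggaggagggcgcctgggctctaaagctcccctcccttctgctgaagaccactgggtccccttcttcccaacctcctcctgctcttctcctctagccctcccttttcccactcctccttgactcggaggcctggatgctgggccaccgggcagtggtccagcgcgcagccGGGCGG
Grm7: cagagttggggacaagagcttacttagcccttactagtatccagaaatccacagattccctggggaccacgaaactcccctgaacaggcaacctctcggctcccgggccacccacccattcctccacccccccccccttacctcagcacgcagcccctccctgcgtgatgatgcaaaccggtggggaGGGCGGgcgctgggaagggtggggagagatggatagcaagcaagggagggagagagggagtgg

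The Grm2 window held 3 GC boxes and the Grm3 and Grm7 windows held 1 each, where 32.7% of 32851 promoter windows of this length held at least 1. Grm8 held 1 in the most upstream of its 3 windows. A cAMP response element (TGACGTCA), an E-box (CACGTG) and a TATA box (TATAAA) were searched in the same way, on both strands, and occurred in 1.55%, 6.02% and 12.4% of all windows. None of these 3 motifs was found in the 7 windows of Grm2, Grm3, Grm7 and Grm8. Entries were found for these 4 of the 6 genes. A match of letters is a description and does not show that a factor binds.

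Grm5, the postsynaptic group I receptor, fell by 0.14 on the log2 scale with an SE of 0.05 at its brighter probe set 1455272_at (adjusted p = 0.0158). The signal was 12.32 to 12.50 at 4.5 months and 12.37 to 12.71 at 10 days. This call was lost when Tg mouse 2 of 10 days was left out (adjusted p = 0.0945), and also without wt mouse 2 of 4.5 months (adjusted p = 0.0502). The second probe set, 1456119_at, had a difference of −0.23 ± 0.07 (adjusted p = 0.00851).

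The other group III receptors did not pass the threshold in the mean of both genotypes. Grm4, an autoreceptor on glutamate terminals, differed by 0.13 ± 0.13 (adjusted p = 0.395), and Grm8, a presynaptic receptor best known in the hippocampus from the lateral perforant path, by −0.29 ± 0.23 (adjusted p = 0.275). In wt mice alone Grm4 rose by 0.44 ± 0.18 (adjusted p = 0.0358), with 8.44, 8.47 and 8.62 at 4.5 months and 8.23, 8.02, 8.04 and 8.0 at 10 days. In Tg mice the Grm4 difference was −0.19 ± 0.19 (adjusted p = 0.44), and the test of the difference between the genotypes gave −0.63 ± 0.26 (limma, adjusted p = 0.616).

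Within a genotype, 2 of 6 receptors changed between these ages in Tg mice, against 53.2% of all genes, and 5 of 6 in wt mice, against 56.4%. The receptors called only in wt mice were Grm2, Grm4 and Grm5, and none of the 6 passed the test that this change differs between Tg and wt (limma, 0% of all genes). At an unadjusted p under 0.05 that test gave 1 of 6, Grm4, but the share of all genes at that threshold was not computed.

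The same interval changed the makeup of the tissue by its markers, with 9 of 14 marker lists having sums that did not overlap between the ages. All 7 markers of immature neurons fell, with summed signals of 17400 to 22700 at 4.5 months, against 73100 to 77000 at 10 days. All 6 measured oligodendrocyte markers rose, with sums of 52700 to 72000 at 4.5 months, against 5930 to 11700 at 10 days. Of 7 astrocyte markers, 4 rose and 3 fell, and their sums were 53700 to 61700 at 4.5 months and 42000 to 47600 at 10 days. The 7 neuron markers summed to 94300 to 101000 at 4.5 months and 63800 to 72200 at 10 days. The part of these shifts in the receptor changes was not tested.

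**Figure D2:**
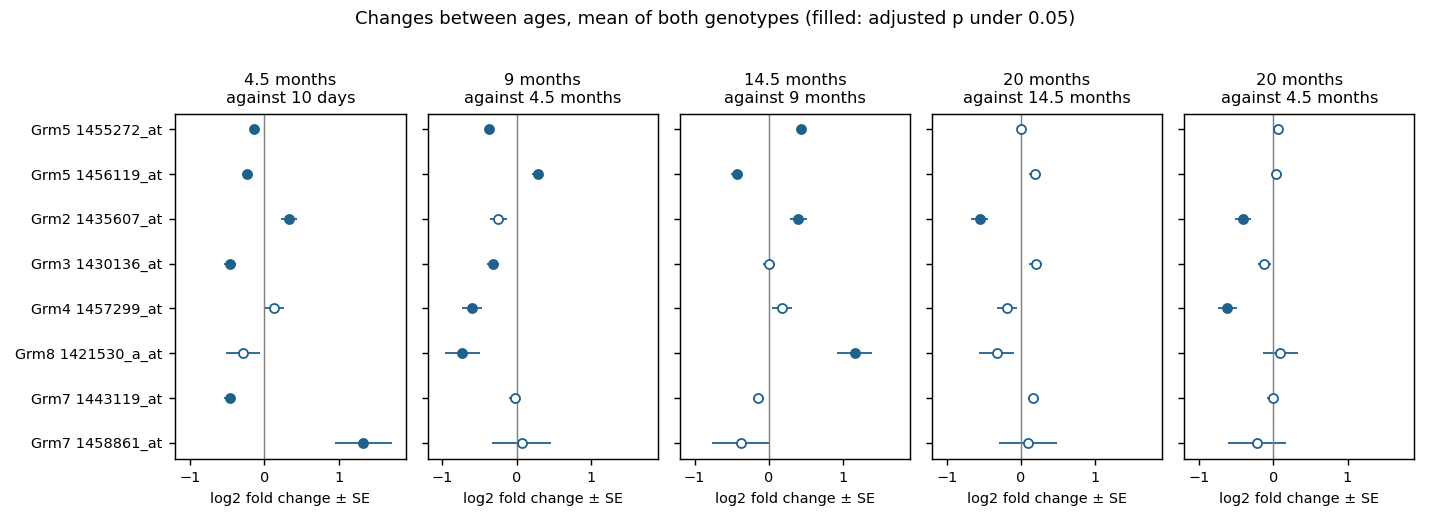
Points give the log2 fold change (x axis) of each of the 8 tested probe sets (rows) for 5 comparisons between ages, averaged over Tg and wt mice, with bars of 1 SE, and filled points mark an adjusted p under 0.05. Grm3 and Grm7 (1443119_at) lie below 0 from 10 days to 4.5 months, and the 2 Grm5 probe sets lie on opposite sides of 0 at both steps that involve 9 months.

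Between 4.5 and 20 months, 2 of the 6 receptors changed, against 42.3% of all genes. Both fell, against 19.9% of all genes. Grm4 differed by −0.62 ± 0.13 (adjusted p = 4.39e-04), the largest change among the 6 receptors in this comparison, and Grm2 by −0.40 ± 0.11 (adjusted p = 0.00445). The differences of Grm3, Grm5, Grm7 and Grm8 lay between −0.12 and 0.10, with adjusted p of 0.285 or more. Other measures moved with these falls. The neuron marker sum was 81100 to 86700 at 20 months and 94300 to 101000 at 4.5 months, without overlap, and 3 of its 7 markers fell and 0 rose. The beta-actin ratio was 0.508 to 0.552 at 20 months and 0.353 to 0.462 at 4.5 months (exact permutation test, p = 0.00216). Their part was not tested.

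Grm4 fell in both genotypes. In Tg mice it was at 7.63, 7.99 and 7.54 at 20 months, against 8.45, 8.50 and 7.91 at 4.5 months, a difference of −0.56 ± 0.19 (adjusted p = 0.0299) with 1 older mouse above 1 younger one. In wt mice it was at 7.89, 7.89 and 7.76 at 20 months, against 8.44, 8.47 and 8.62 at 4.5 months, so that every older mouse was lower, by 0.67 ± 0.19 in the mean (adjusted p = 0.0077). Over the 5 ages in order, the Grm4 medians were 8.23, 8.46, 7.86, 7.95 and 7.82. The 3 later ages overlapped with each other.

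Grm2 did not follow a single course in adults. Its medians were 9.78 at 4.5 months, 9.50 at 9 months, 9.87 at 14.5 months and 9.24 at 20 months. The signal was 9.15 to 9.50 at 20 months, below all values of 9.70 to 10.00 at 14.5 months, with a difference of −0.56 ± 0.11 (adjusted p = 2.53e-04). It was the 1 receptor of 6 that changed between those ages, against 33.6% of all genes, and 15.3% of all genes fell. Between the same ages the beta-actin ratio was 0.508 to 0.552 at 20 months and 0.315 to 0.399 at 14.5 months, and the Gapdh ratio −0.463 to −0.433 at 20 months and −0.398 to −0.352 at 14.5 months, both without overlap (exact permutation test, p = 0.00216 each). The sums of 5 of 14 marker lists did not overlap either, among them neurons, at 81100 to 86700 at 20 months and 90600 to 98700 at 14.5 months. Their part in the Grm2 fall was not tested.

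The Grm2 change in aging was −0.52 ± 0.16 in Tg mice (adjusted p = 0.0152) and −0.29 ± 0.16 in wt mice (adjusted p = 0.19). The test of the difference between genotypes gave −0.24 ± 0.22 (adjusted p = 0.96), and 0 of 6 receptors passed it in limma (0.00779% of all genes). The count was also 0 of 6 at an unadjusted p under 0.05, where the share of all genes was not computed. In Tg mice 2 of 6 receptors were called in aging, against 24.8% of all genes, and in wt mice 1 of 6, against 31.2%.

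Grm3, and Grm7 by its bright probe set 1443119_at, stayed below their 10-day signals at every adult age. Grm3 medians were 11.15, 10.77, 10.81 and 11.03 at 4.5, 9, 14.5 and 20 months, and no adult mouse reached the lowest 10-day value of 11.43. Grm7 medians by 1443119_at were 10.70, 10.73, 10.56 and 10.65, and its highest adult value of 10.93 was below the lowest 10-day value of 11.04. The dim Grm7 probe set 1458861_at went the other way, with a median of 6.25 at 10 days and of 6.99, 7.26, 6.72 and 6.83 at these adult ages. Grm3 fell further from 4.5 to 9 months, by 0.32 ± 0.08 on the log2 scale (adjusted p = 0.00293), a step over which the beta-actin ratio also differed, while Grm7 differed by −0.03 ± 0.07 over that step (adjusted p = 0.783).

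By the brightest probe set of each receptor, the 9-month mice differed from both neighbouring ages in Grm5 and Grm8. In Grm2, Grm3 and Grm4 they differed from 1 of these ages. The counts that follow also use the brightest probe sets. Against 4.5 months, 4 of 6 receptors fell (44.9% of all genes changed and 24.3% fell), namely Grm3, Grm4, Grm5 and Grm8. From 9 to 14.5 months 3 of 6 rose (48.2% of all genes changed and 26.3% rose), namely Grm2, Grm5 and Grm8. The beta-actin ratio moved with both steps, being 0.353 to 0.462 at 4.5 months, 0.709 to 0.963 at 9 months and 0.315 to 0.399 at 14.5 months. Of 14 marker lists, those of neurons and astrocytes had sums that set 9 months apart from both neighbours. The neuron sums were 94300 to 101000, 76600 to 86500 and 90600 to 98700 at 4.5, 9 and 14.5 months, and 5 of 7 markers fell in the first step and 5 rose and 2 fell in the next. The astrocyte sums were 53700 to 61700, 47300 to 51600 and 55500 to 59200, and 3 of 7 markers fell and 1 rose, then 4 rose and 1 fell. The part of these measures in the receptor changes was not tested.

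The 2 probe sets of Grm5, however, moved in opposite directions. By 1455272_at the signal was 11.95 to 12.16 at 9 months (median 12.02), below all values of 12.32 to 12.50 at 4.5 months (median 12.43), a difference of −0.38 ± 0.05 (adjusted p = 4.66e-07). By 1456119_at it was 11.18 to 11.86 at 9 months (median 11.50), against 11.11 to 11.33 at 4.5 months (median 11.22), a difference of 0.28 ± 0.08 (adjusted p = 0.0034).

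From 9 to 14.5 months both probe sets reversed. The change was 0.43 ± 0.05 by 1455272_at (adjusted p = 3.78e-08) and −0.43 ± 0.08 by 1456119_at (adjusted p = 3.03e-05), with no overlap of ages in either. The median of both probe sets changed by −0.05 from 4.5 to 9 months (adjusted p = 0.425) and by 0.00 from 9 to 14.5 months (adjusted p = 0.974). These data give no direction for Grm5 as a gene at 9 months.

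The log2 ratio of 1455272_at to 1456119_at in the deposited signals was 0.0997 to 1.01 at 9 months (median 0.571), against 0.998 to 1.36 at 4.5 months (median 1.18). The exact two-sided permutation test gave p = 0.00433, or 0.0216 adjusted over the 10 comparisons of this ratio. At 14.5 months it was 1.21 to 1.37, above every 9-month mouse (exact permutation test, p = 0.00216, adjusted p = 0.0216). The ratio was formed after its probe sets had been seen to move in opposite directions at 9 months. Every 14.5-month mouse was above every 9-month mouse by 1455272_at and below by 1456119_at, which already fixes the lack of overlap in the ratio. These p-values for 9 months therefore describe the opposite movement again and are not a separate test of it. The Grm5 ratio is lowest at the age where the beta-actin ratio is highest. Among the 9-month mice, however, wt mouse 2 had the highest value of both, at 1.01 and 0.963. At 20 months the Grm5 ratio was 1.16 to 1.31 and the beta-actin ratio 0.508 to 0.552. The part of RNA integrity in this was not tested. At 10 days the Grm5 ratio was 0.706 to 1.18 in Tg mice and 1.27 to 1.35 in wt mice, without overlap (exact permutation test, p = 0.0286, the smallest that 3 against 4 mice can give, adjusted p = 0.0952).

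**Figure D3:**
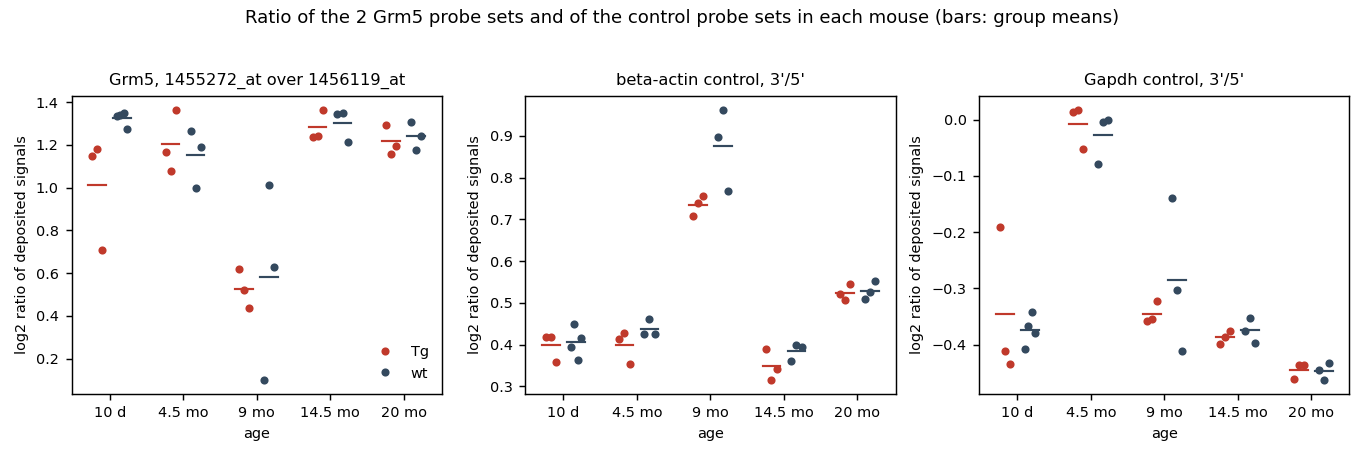
The y axes give log2 ratios of deposited signals in each mouse by age (x axis), for the 2 Grm5 probe sets on the left, the 3′ and 5′ beta-actin control probe sets in the middle and those of Gapdh on the right, with Tg mice left of wt mice and bars at group means. At 9 months the Grm5 ratio lies between 0.0997 and 1.01 and the beta-actin ratio between 0.709 and 0.963, while the Gapdh ratio sets the 4.5-month mice apart.

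The Gapdh ratio did not single out the same age. It was −0.078 to 0.018 at 4.5 months, against −0.434 to −0.191 at 10 days (exact permutation test, p = 0.00117), and −0.463 to −0.140 over the 3 later ages. It moved with each comparison that involves 4.5 months, and its part in them was not tested.

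Grm8 was at 6.84 to 7.45 at 4.5 months (median 7.10), at 4.83 to 7.24 at 9 months (median 6.63) and at 7.24 to 7.93 at 14.5 months (median 7.51). The step down was −0.73 ± 0.24 (adjusted p = 0.0124), and it was lost without Tg mouse 1 of 9 months (−0.49, adjusted p = 0.0604). The step up from 9 to 14.5 months was 1.16 ± 0.24 (adjusted p = 1.7e-04), with every 14.5-month mouse above every 9-month mouse.

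In the F-test over the 5 ages, all 6 receptors varied in Tg mice, against 74% of all genes, and 5 of 6 in wt mice, against 75.6%. The exception was Grm8 in wt mice (adjusted p = 0.213). With the median of its probe sets, Grm7 did not pass in either genotype (adjusted p = 0.0676 in Tg mice and 0.162 in wt mice). Without the 9-month arrays, Grm8 (adjusted p = 0.497) and Grm5 by 1455272_at (adjusted p = 0.738) no longer varied with age in Tg mice. In wt mice the Grm4 call (adjusted p = 0.0302) was lost without any 1 of the 3 mice of 4.5 months or without wt mouse 3 of 20 months, with adjusted p of 0.0596 to 0.127.

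The study's question for Tg vs. wt mice was whether extra glutamate dehydrogenase in neurons changes hippocampal gene expression. At a single age, a call needed an adjusted p no higher than 0.01 together with a fold change of 1.3 or more, both taken from the study's methods. By this rule 0 of 6 receptors differed at any of the 5 ages in limma. The share of all genes called was 0% at 10 days, 4.5 and 14.5 months, 0.693% at 9 months and 0.0311% at 20 months. At an unadjusted p under 0.05 the receptor counts were 1 at 10 days (Grm4), 2 at 9 months (Grm4 and Grm8) and 1 at 20 months (Grm7). The count was 0 at 4.5 and 14.5 months. The share of all genes at that unadjusted threshold was not computed, so these counts have no background to be read against.

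Grm4 at 9 months came closest. Its signal was 7.63, 7.81 and 6.91 in Tg mice, against 8.44, 7.90 and 8.08 in wt mice, so that all Tg mice were lower. The difference was −0.69 ± 0.19 (adjusted p = 0.0403), which passes an adjusted p under 0.05, as did 2.99% of all genes, but not the stricter rule. In the deposited signals before quantile normalization the genotypes overlapped, with 213, 245 and 146 in Tg mice and 341, 238 and 277 in wt mice.

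The adjusted p of this Grm4 difference was 0.121 without quantile normalization. It was 0.245 without Tg mouse 3 and 0.129 without wt mouse 1. With the 9-month arrays alone it was 0.449, the highest among all alternatives, and the lowest was 0.0135.

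Grm8 at 9 months was at 4.83, 6.87 and 5.73 in Tg mice, against 7.24, 7.21 and 6.40 in wt mice. One Tg mouse lay above 1 wt mouse, and the difference was −1.13 ± 0.33 (adjusted p = 0.0539). It was called when Tg mouse 2 was left out (−1.67, adjusted p = 0.00258) and had an adjusted p of 0.267 without Tg mouse 1, so that it rests on single mice. Both low Tg values are below the array median.

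Other measures separated the same 9-month mice, and 5 of 14 marker sums did not overlap between the genotypes. The summed signal of the striatum markers, with 4 of 6 measured, was 373 to 494 in Tg mice and 830 to 970 in wt mice. Drd1, a dopamine receptor of striatal neurons, differed by −1.88 ± 0.33 (adjusted p = 0.00228), and 1 of the 4 markers passed the rule for a single age. The cerebellum sum, with 2 of 6 markers measured, was 1580 to 1900 in Tg mice and 1950 to 2100 in wt mice. Of these markers, Cbln1 passed the rule for a single age (−1.04 ± 0.22, adjusted p = 0.00912) and Pvalb did not (−0.10 ± 0.16, adjusted p = 0.776). Sums were also lower in Tg mice for oligodendrocyte precursors (2540 to 2780, against 3070 to 3410 in wt mice) and immature neurons (16500 to 18200, against 19500 to 20400). No single marker of these lists passed the rule for a single age. Among the immature neuron markers, Sox4 and Sox11 were higher in Tg mice in the mean and the others were lower. The dentate granule cell sum was higher, at 8810 to 9830 in Tg mice and 6910 to 8730 in wt mice, with differences of 0.77 ± 0.22 for Prox1 (adjusted p = 0.0494) and 1.11 ± 0.30 for Dsp (adjusted p = 0.0436), which do not meet the rule for a single age.

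The beta-actin ratio at 9 months was 0.709 to 0.756 in Tg mice and 0.768 to 0.963 in wt mice, without overlap (exact two-sided permutation test, p = 0.1, the smallest that 3 against 3 mice can give). These measures separate the same mice as the genotype and cannot be told apart from it at this age. Their part in the Grm4 and Grm8 differences was not tested.

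At 10 days Grm4 was at 8.63, 8.38 and 8.39 in Tg mice, all above the 8.23, 8.02, 8.04 and 8.0 of wt mice. The difference of 0.40 ± 0.18 did not pass (limma, adjusted p = 0.642). The neocortex marker sum, with 5 of 6 measured, was 4190 to 4220 in the same Tg mice and 3490 to 3630 in wt mice. The cerebellum sum, with 2 of 6 measured, was 1130 to 1300 in Tg mice and 981 to 1100 in wt mice, and the microglia sum was also higher in every Tg mouse, so that 3 of 14 sums did not overlap. Their part was not tested. At 4.5, 14.5 and 20 months the Grm4 differences were −0.23, −0.11 and −0.12, with overlapping values.

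Grm7 by 1443119_at was lower in Tg mice in the mean at each of the 5 ages, by 0.01 to 0.24 on the log2 scale, with overlapping values at every age. Averaged over ages it differed by −0.10 ± 0.05 (limma, adjusted p = 0.587) and Grm8 by −0.31 ± 0.15 (adjusted p = 0.583). For Grm2, Grm3 and Grm5 the averages were 0.03 ± 0.07, 0.04 ± 0.05 and −0.03 ± 0.03.

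No receptor passed the tests of genotype over all ages that were run here. The study, however, lists Grm4 among the synaptic transmission genes that differed between Tg and wt mice across ages. Its list came from another test, on another summary of the same arrays. The average over ages called 0 of 6 (0.0156% of all genes), the joint F-test 0 of 6 (0.195%) and the age by genotype interaction 0 of 6 (0.0623%), all in limma. At an unadjusted p under 0.05 they gave 2 (Grm7 and Grm8), 2 (Grm4 and Grm8) and 1 (Grm4), with no share of all genes computed at that threshold. The smallest adjusted p among the 6 was 0.251, for Grm4 in the joint F-test.

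**Figure D4:**
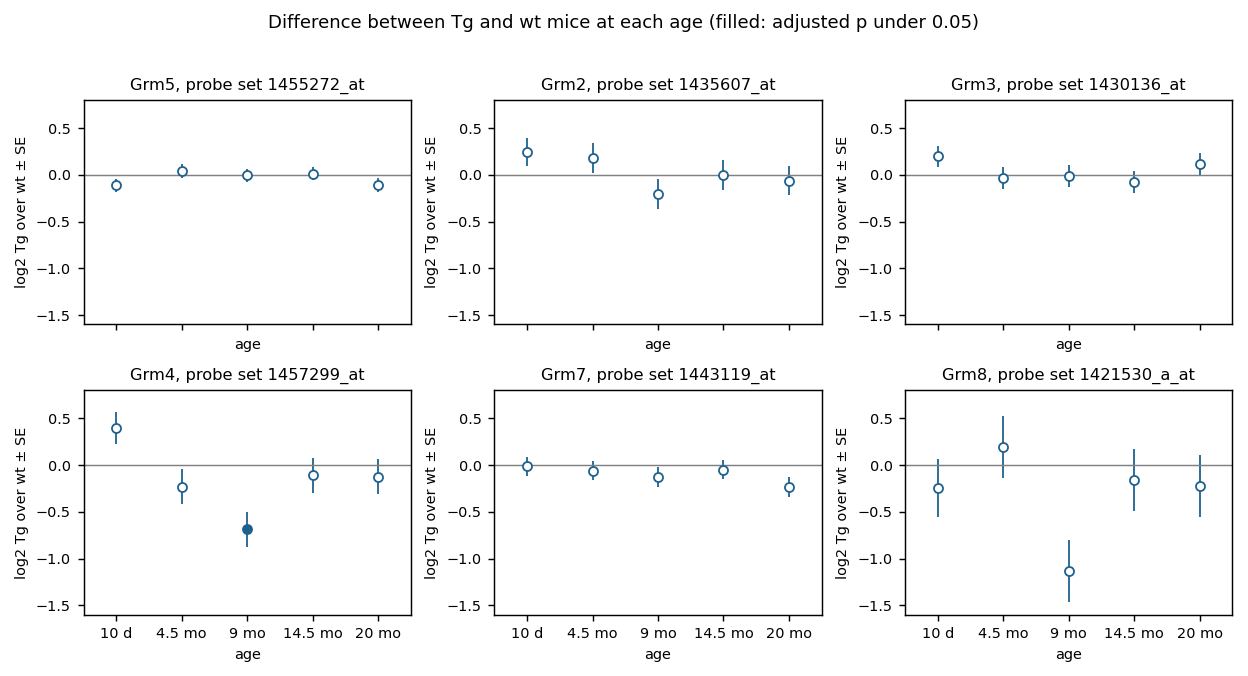
The y axis gives the log2 difference of Tg over wt mice and its SE at each age (x axis) for the brightest probe set of each receptor, and a filled point marks an adjusted p under 0.05. Grm4 at 9 months, at −0.69, is the 1 filled point, and Grm8 at 9 months lies at −1.13. Bars are widest for Grm8 at every age, and each SE uses a spread shared by all groups.

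Genes that carry, anchor or feed the receptors' signals were counted in 5 lists, to be read against 66.7% of all genes that changed between 10 days and 4.5 months, 31.2% that rose and 35.5% that fell. Of 13 measured genes of group I signalling, 7 rose and 3 fell between 10 days and 4.5 months, with a median of 0.23, against −0.04 over all genes. The protein kinase C genes Prkcb and Prkca rose by 0.90 ± 0.05 and 0.92 ± 0.07 (adjusted p = 3.02e-16 and 3.56e-13), and Camk2a, a calcium-dependent kinase of the synapse, rose by 1.58 ± 0.10 (adjusted p = 3.55e-13). Ppp3ca, a subunit of the phosphatase calcineurin, rose by 0.61 ± 0.05 (adjusted p = 2.81e-12).

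Of 19 measured Homer and scaffold partners, which anchor the receptors at the synapse, 11 rose and 7 fell, with a median of 0.47. Dlgap1 rose by 1.63 ± 0.07 and Shank3 by 1.29 ± 0.06 (adjusted p = 1.58e-18 and 8.65e-18), both scaffolds of the postsynaptic density. Ncdn, a neuronal protein that binds Grm5, rose by 1.01 ± 0.04 (adjusted p = 3.95e-19). Elfn2, a synaptic adhesion protein that binds group III receptors, rose by 0.92 ± 0.08 (adjusted p = 3.06e-11).

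Of the 22 genes of group II and III signalling, 10 rose and 8 fell, with a median of 0.04. The adenylyl cyclase gene Adcy9 rose by 1.34 ± 0.06 (adjusted p = 2.5e-17). The inhibitory G protein subunit gene Gnai3 fell by 1.19 and the gamma subunit genes Gng2 and Gng3 fell by 1.08 and 0.75 on the log2 scale, with adjusted p of 2.01e-15 or less.

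Of 13 genes of desensitization and trafficking, 5 rose and 3 fell, with a median of 0.03. Rgs14, a regulator of G protein signalling enriched in the CA2 field, rose by 1.51 ± 0.06 and the receptor kinase gene Grk3 by 0.97 ± 0.07 (adjusted p = 2.35e-18 and 1.41e-12). Rgs7, which speeds the switching off of Go, rose by 0.28 ± 0.05 (adjusted p = 2.59e-05), and Ric8a, a chaperone of G protein alpha subunits, fell by 1.69 ± 0.12 on the log2 scale (adjusted p = 1.57e-12).

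Of 12 genes of ligand supply, 5 rose and 5 fell, with a median of −0.06. Slc17a7, the vesicular glutamate transporter of hippocampal terminals, rose by 2.10 ± 0.07 (adjusted p = 7.72e-21). The uptake transporters Slc1a2 of astrocytes and Slc1a1 of neurons rose by 0.57 ± 0.04 and 0.45 ± 0.05 (adjusted p = 2.77e-14 and 5.46e-10). Rimklb, an enzyme that makes N-acetylaspartylglutamate, the peptide agonist of Grm3, fell by 2.16 ± 0.19 on the log2 scale (adjusted p = 6.38e-11).

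In aging, 3 genes of group I signalling rose and 6 fell, with a median of −0.13, against 0.03 over all genes. Of all genes, 42.3% changed in aging, 22.4% rising and 19.9% falling. Prkcb and Camk2a fell by 0.51 and 0.93 on the log2 scale (adjusted p = 8.05e-10 and 6.07e-08). Of the Homer and scaffold partners, 4 rose and 10 fell, with a median of −0.30. Shank3 fell by 1.12 and Cabp1, a calcium-binding neuronal protein, by 1.13 (adjusted p = 4.08e-15 and 5.58e-09).

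Group II and III signalling had 7 genes that rose in aging and 7 that fell, with a median of 0.01. Among those that fell were the G protein alpha subunit genes Gnai2, by 0.92, and Gnao1, by 0.66 (adjusted p = 7.34e-12 and 9.46e-12). Desensitization and trafficking had 3 that rose and 6 that fell, with a median of −0.13, and Rgs7 and Grk3 fell by 0.39 and 0.52 (adjusted p = 1.05e-06 and 2.24e-06). Ligand supply had 3 each way, with a median of 0.16, while Slc17a7 fell by 1.92 and Slc1a1 by 0.32 (adjusted p = 1.58e-18 and 1.63e-06). The list changes of both intervals share the 4.5-month mice. Their Gapdh ratio was −0.078 to 0.018, against −0.434 to −0.191 at 10 days and −0.463 to −0.433 at 20 months. Its part in the changes of these lists was not tested.

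Between Tg and wt mice at 9 months, 1 of the 79 measured genes of the 5 lists passed the rule for a single age (1.27%, against 0.693% of all genes). This was Dlg4, the postsynaptic density protein PSD-95, named because its value stood out, which was higher in Tg mice by 0.72 ± 0.15 (adjusted p = 0.00769). The beta-actin ratio and 5 of 14 marker sums also separated these Tg and wt mice, and their part in the Dlg4 difference was not tested.

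**Figure D5:**
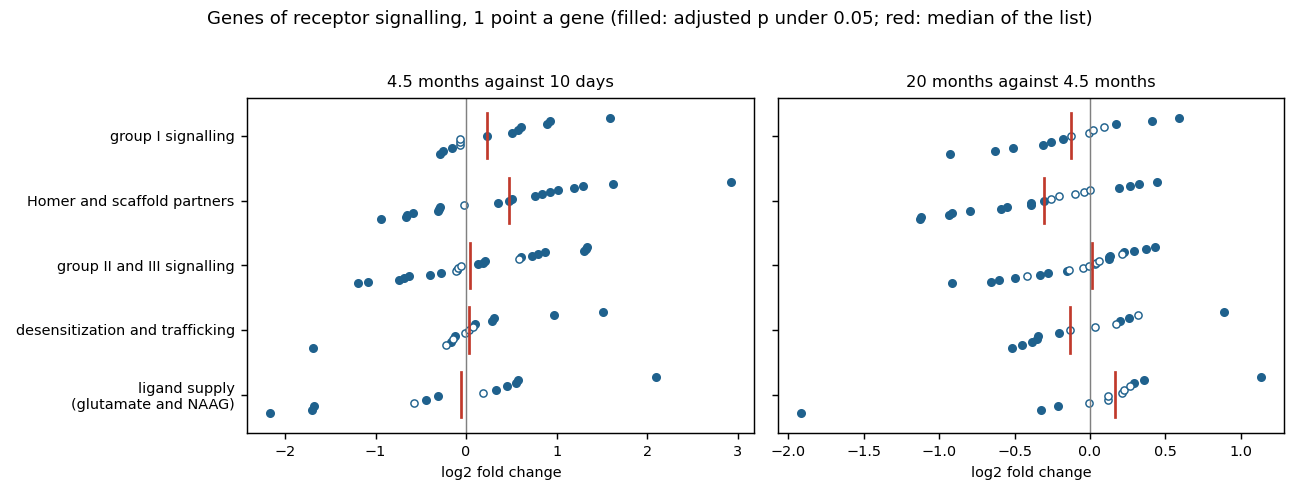
The x axes give log2 fold changes of the measured genes of 5 lists (rows), from 10 days to 4.5 months on the left and from 4.5 to 20 months on the right, with 1 point for each gene, filled at an adjusted p under 0.05, and a red line at the median of each list. The Homer and scaffold partners have the highest median on the left, at 0.47, and the lowest on the right, at −0.30. Both panels use the 4.5-month mice, which the Gapdh ratio set apart.

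The genes with the profiles most like each receptor over the 31 arrays differed between receptors. By Pearson's r, Grm5 was closest to Jakmip2 (0.93), Syt4 (0.93) and Nfib (0.91), and these stayed at 0.92, 0.94 and 0.90 over the 24 arrays without the 10-day mice. Grm3 was closest to Mvk (0.92), Sox11 (0.91) and Stmn4 (0.90), and Grm7 to Neto2, Syn3 and Fam102b (each 0.90). Without the 10-day mice the Grm3 values were 0.73 to 0.74 and the Grm7 values 0.59 to 0.64.

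Grm2 was closest to Panx2, Ajm1 and Lbh (each 0.76), Grm4 to Dtx1 (0.80), Rims4 (0.79) and Ptprf (0.78), and Grm8 to Blvrb (0.81), Tcf7l1 (0.79) and Ghdc (0.79). Without the 10-day mice these were between 0.76 and 0.83. The arrays share ages and genotypes, so these correlations describe the profiles and carry no test.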

How the data were processed

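Affymetrix Mouse Genome arrays were used for the hippocampi of 31 male mice. The deposited values are signal intensities that the authors made with MAS5, on a linear scale, with a 2% trimmed mean of 500 on every array and medians of 91.4 to 140. The study's methods describe another summary of the same arrays, which was not used here.

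Of 45101 probe sets, 64 controls were set aside. The rest were turned to log2, quantile normalized and kept if above the array median on at least 3 arrays (26877). Limma 3.58.1 in R 4.3.3 fitted a mean for each of 10 groups, moderated with a trend and robustly, with Benjamini and Hochberg adjustment. Symbols came from the array annotation, where 34945 probe sets list 1 gene, 932 several and 9160 none, and 34741 were matched by gene identifier. The fit was tested on simulated data. The number of arrays limits precision.

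The members and lists were chosen with earlier results of these data known. Named genes were all 6 receptors, from each list up to 4 genes with the smallest p from 10 days to 4.5 months and up to 2 in aging, and the 3 genes most like each receptor. Alternatives were no quantile normalization, an offset of 50, no filter, a filter at the 60th percentile, a replicate block, moderation without trend, the median of probe sets, single ages, other thresholds and leaving out each mouse. Leaving out the 9-month arrays, the Grm5 ratio and the contrast of 9 months with 10 days were added after seeing the data.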

Additional observations from a re-analysis of the deposited data

Results flagged for a closer look

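The Grm4 difference between Tg and wt mice itself differed between 9 months and 10 days. It was −0.69 at 9 months, where all Tg mice were lower, and 0.40 at 10 days, where all Tg mice were higher. The difference of these differences was −1.084 on the log2 scale (SE 0.26, limma adjusted p = 0.0461), and 1 of 6 receptors was called, against 0.506% of all genes. This is 1 of 10 pairs of ages looked at for 8 probe sets, 80 comparisons, and the adjustment covers the probe sets within this pair only. The adjusted p was 0.0809 without quantile normalization, 0.0649 without the filter, 0.0599 without trend and robust moderation, and 0.0209 to 0.124 when single mice were left out. The call was lost without any 1 of the 7 mice of 10 days, and without Tg mouse 3 or wt mouse 1 of 9 months. The F-test of the interaction over all 5 ages gave an adjusted p of 0.299 for Grm4. The beta-actin ratio was 0.709 to 0.963 at 9 months and 0.359 to 0.449 at 10 days, and its part was not tested.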

How the results depend on the processing

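Counts of called receptors moved in few settings. Tg vs. wt mice at 9 months gave 1 of 6 (Grm4) at an adjusted p under 0.05 with no fold threshold, and 0 to 1 when a mouse was left out. From 14.5 to 20 months, 2 of 6 were called without the 9-month arrays (Grm3 joined, 0.20, adjusted p = 0.0153), and 1 to 2 when a mouse was left out, with Grm3 or Grm7 joining without Tg mouse 3 of 14.5 months or wt mouse 2 of 20 months. When a mouse was left out, 3 to 4 were called from 10 days to 4.5 months, 4 to 5 from 4.5 to 9 months, 3 to 4 from 9 to 14.5 months and 2 in aging. Among all probe sets, the same fits called 16218 to 16774, 11210 to 11915, 12629 to 13550 and 9522 to 9863. They called 7811 to 8420 from 14.5 to 20 months and 59 to 268 for Tg vs. wt mice at 9 months. The share of all genes was not computed in these settings or without the 9-month arrays. By the median of probe sets, Grm7 reversed between 10 days and 4.5 months (0.79, adjusted p = 0.00533) and lost its age calls in both genotypes. That median includes the dim probe sets, one of them not tested. Without quantile normalization, where the median change over all probe sets between those ages is 0.14 in place of 0.01, Grm4 passed between them (0.29, adjusted p = 0.0454) and Grm2 passed from 4.5 to 9 months (−0.27, adjusted p = 0.0428).

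The replicate number was tried as a block. Same-numbered mice did not deviate together (correlation −0.112 to 0.055 over 15 pairs, 0 above 0.1), so the numbers are names only. The block kept the call of 127 of 128 receptor values. The exception was the Grm4 contrast of 9 months with 10 days (−1.06, adjusted p = 0.0535).

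Over all probe sets, Tg vs. wt mice at 9 months gave 192 calls, 934 with no fold threshold and 0 with that age's arrays alone. The Grm5 ratio changed by −0.715 to −0.532 from 4.5 to 9 months and by 0.647 to 0.83 from 9 to 14.5 months when a mouse was left out. With 3 mice a group, small genotype differences could be missed.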
